A study of Mus musculus with 24 samples.

Results

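The comparison described here set *tfeb tfe3* double-knockout (DKO) mouse embryonic fibroblasts (MEFs) against wild-type (WT) MEFs after both had received torin1, an ATP-competitive inhibitor of the kinase MTOR. It rested on 8 of the 24 sequenced libraries, 4 from WT and 4 from DKO cells, taken by genotype and treatment label alone. The other 16 libraries came from the same WT and DKO lines under DMSO (the vehicle) and under MK-8722, an activator of AMP-activated protein kinase (AMPK), with 4 libraries in each group. The study used a single dose of each compound on these cells; the labels used here give neither dose nor duration. WT and DKO MEFs were separate lines obtained from another laboratory, and a difference between the lines cannot be told apart from an effect of the lost factors. The libraries were cultures of different passage number, 7 to 11, and no label says that a WT and a DKO culture were handled together, so that p-values measure the spread between these cultures.

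TFEB and TFE3 belong to the MiT/TFE family of basic helix-loop-helix leucine zipper factors, which bind E-box sequences in the promoters of lysosomal and autophagy genes. Active MTORC1, on the lysosomal surface, phosphorylates TFEB and TFE3 and keeps them in the cytoplasm. When MTOR is inhibited the factors are dephosphorylated and move to the nucleus, where they raise a network of lysosomal genes named CLEAR. Genes that need the factors only when MTOR is off would show little difference between genotypes under vehicle and a difference under torin1. The comparison describes which genes had that pattern, and whether they need the factors was not tested.

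In bulk samples fewer cells expressing a gene and less RNA per cell cannot be told apart. The torin1 libraries held between 26186033 and 29857437 gene-assigned counts, and all 24 between 24668870 and 33332507. Values per library below are CPM (gene counts relative to the library's total) scaled by the trimmed mean of M-values (TMM), and differences are log2 fold changes of DKO over WT with the standard error (SE) of the fit. Summed fibroblast markers lay between 7724 and 9894 CPM in the WT and between 7980 and 8949 CPM in the DKO libraries under torin1, with 1 of 12 markers at 0 counts in DKO. Summed markers of leukocytes, endothelium, neurons and glia, adipocytes and muscle, and melanocytes stayed at or under 8.74 CPM in every torin1 library. The 5 epithelial markers summed to between 27.3 and 34.0 CPM in WT and between 59.9 and 72.2 CPM in DKO. *Krt19* (21.7 to 26.9 CPM in WT, 48.5 to 57.7 CPM in DKO) and *Krt8* were higher in DKO. *Epcam* (0.457 to 0.909 CPM in WT, 0.0357 to 0.180 CPM in DKO) and *Cdh1* were lower in DKO, and *Krt18* overlapped. The part of other cell types in the results below was not tested.

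The targeted genes were read first. *Tfeb* measured 16.2, 15.7, 14.01 and 16.01 CPM in the WT torin1 libraries and 1.34, 1.69, 1.40 and 1.64 CPM in the DKO libraries, a log2 fold change of -3.34 ± 0.10 (SE, n = 4 against 4). *Tfe3* mRNA was not lower in DKO cells, with 77.8, 83.3, 83.3 and 77.5 CPM in WT and 89.5, 94.8, 95 and 90.4 CPM in DKO. Its log2 fold change of 0.20 ± 0.03 stayed under the fold change needed for a call, and gene-level counts do not show whether a transcript is truncated. *Mitf*, another family member, was higher in DKO, at 8.34 ± 0.95 CPM (SD, n = 4) in WT and 39.6 ± 3.10 CPM in DKO under torin1, a log2 fold change of 2.25 ± 0.13. *Tfec*, the fourth member, had 0 counts in every library.

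A call required a Benjamini-Hochberg adjusted p under 0.05 in edgeR's quasi-likelihood test, over 15401 genes, and a difference of 1.2-fold or more. Under torin1, 4283 genes (27.8%) were lower and 3692 (24%) higher in DKO than in WT MEFs, 51.8% in all, beside 48.2% under DMSO and 48.7% under MK-8722. Of the lower genes, 3097 (72.3%) were also lower under DMSO, 1126 were not called there and 60 were higher there. Of the higher genes, 2809 (76.1%) were also higher under DMSO, 874 were not called and 9 were lower. Calls in the same direction under all 3 treatments numbered 2754 lower and 2495 higher genes. TMM factors were 1.067 to 1.084 in WT and 0.969 to 0.991 in DKO torin1 libraries, and scaling to library size alone moved the median of all genes by -0.127 (log2) and gave 5623 lower and 2629 higher genes. All calls below are relative to the TMM scale.

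Genes with the difference in both vehicle and torin1 included lysosomal genes known as targets of the factors. *Rragd*, a Rag GTPase that recruits MTORC1, lay at 5.55, 4.77, 6.58 and 7.27 CPM in WT and 0.373, 0.404, 0.216 and 0.429 CPM in DKO under torin1, with log2 fold changes of -4.07 ± 0.30 under torin1 and -3.06 ± 0.42 under DMSO. *Stbd1*, a receptor for glycogen, differed by -3.30 ± 0.16 under torin1 and by -3.29 ± 0.19 under DMSO. For *Gaa* (acid alpha-glucosidase) and *Mcoln1* (a lysosomal calcium channel) the difference was present in vehicle and larger under torin1. *Gaa* went from -0.64 ± 0.07 under DMSO to -1.60 ± 0.07, and *Mcoln1* from -0.41 ± 0.06 to -1.27 ± 0.06. Among the 3097 genes lower under both, the difference of differences was called larger under torin1 for 163 and smaller for 114. Over all genes that difference was called lower for 6.33% and higher for 4.68%.

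Genes alike under DMSO were set apart by 3 conditions, namely a log2 fold change under DMSO smaller in size than that of a 1.2-fold difference, a 95% confidence interval inside 1.5-fold either way, and no call. These held for 5662 genes (36.8% of those tested). Of them, 312 (2.03% of all genes tested) were lower in DKO under torin1 and 286 (1.86%) higher, counting a gene if it was called under torin1 and the test of the torin1 difference against the DMSO difference had an adjusted p under 0.05 with the same sign. As these conditions used both contrasts, the torin1 and DMSO values of the genes are given as a description. The lower genes had a median log2 fold change of -0.47 under torin1 and -0.04 under DMSO, and 18 of them differed at least 2-fold. The higher genes had medians of 0.42 and 0.12, and 5 differed at least 2-fold. At the DMSO limit, *Ahcyl2* (-0.26 ± 0.05) lay just inside and *Esyt2* (0.27 ± 0.05) just outside. At the torin1 limit, *Plin3* (-0.27 ± 0.05) lay just inside and *Ywhaq* (0.26 ± 0.03) just outside. The higher group was the less stable in size: it held 465 genes without WT torin1 replicate 3 and 410 without WT torin1 replicate 1, and with scaling to library size alone the groups held 523 lower and 157 higher genes. Members changed as well. Library size alone kept 269 of the 312 lower and 116 of the 286 higher genes, and an offset for transcript length kept 206 and 198. Calls on the adjusted p alone kept 202 and 130. The genes lost there had an adjusted p under 0.05 under DMSO, with a difference under 1.2-fold, so alike does not mean equal.

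**Figure D1:**
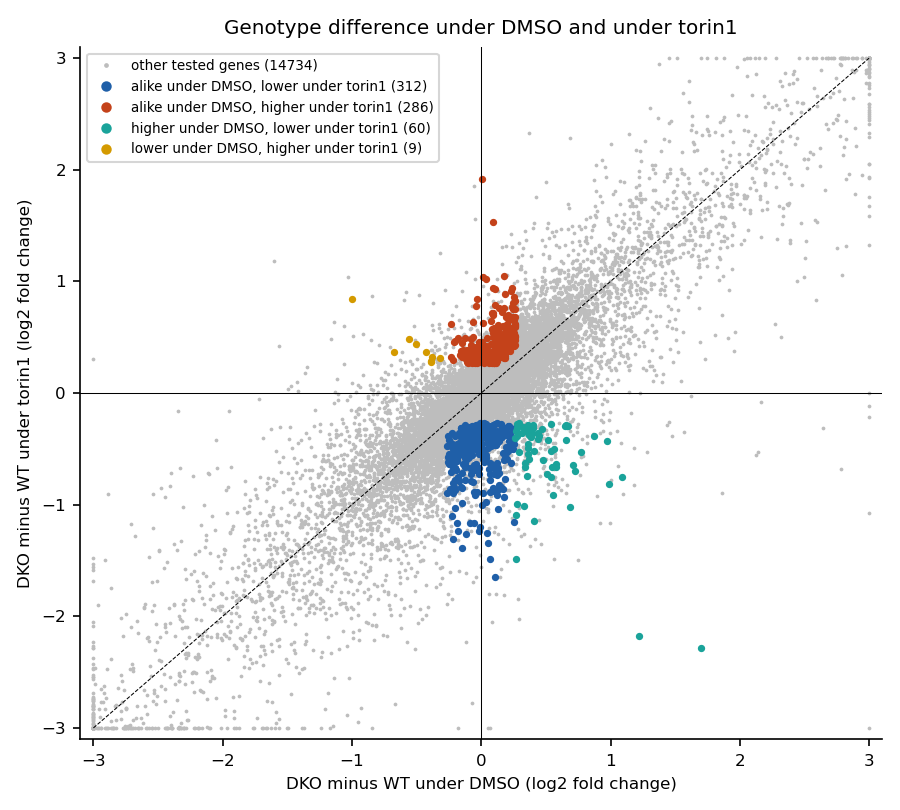
Each point is 1 of the 15401 genes tested, with the DKO minus WT log2 fold change under DMSO on the horizontal axis and under torin1 on the vertical axis; 852 genes beyond 3 on either axis are drawn at the edge. The 312 blue and 286 red genes sit near 0 on the DMSO axis and away from 0 on the torin1 axis, while most other genes follow the dashed line of equal differences.

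Among genes alike under DMSO and lower in DKO under torin1, the 10 with the largest difference, leaving out genes of low level, of overlapping libraries and with a provisional name, were *Amdhd2*, *Gnpda1*, *Neu1*, *Arsa*, *Mfsd1*, *Gpr146*, *Cnnm2*, *Galc*, *Atp6v0d1* and *Mccc1*. *Amdhd2* encodes the deacetylase that acts on N-acetylglucosamine 6-phosphate. It measured 13, 12.5, 14.2 and 13.6 CPM in WT and 15.01, 13.6, 11.98 and 15.04 CPM in DKO under DMSO. Under torin1 it reached 55.1, 68.0, 66.7 and 72.5 CPM in WT against 23.97, 22.7, 23.9 and 22.9 CPM in DKO. The DMSO libraries overlapped and the torin1 libraries were far apart, with a log2 fold change of -1.49 ± 0.09 (edgeR quasi-likelihood, Benjamini-Hochberg adjusted p = 8.2e-13). *Gnpda1*, the deaminase of the next step, read 33.2, 35.7, 38.8 and 40.0 CPM in WT and 14.7, 12.8, 15.3 and 13.7 CPM in DKO under torin1, a difference of -1.39 ± 0.08 after -0.15 ± 0.09 under DMSO; a pseudogene shares its sequence, so its counts are less certain. *Nagk*, the kinase that precedes both, was in the same group (-0.91 ± 0.07 under torin1, 0.12 ± 0.08 under DMSO) and was singled out after its values were seen.

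The lysosomal enzymes followed a similar course. *Neu1*, the lysosomal sialidase, measured 25.4, 22.7, 26.0 and 23.3 CPM in WT and 25.4, 24.2, 24.99 and 26.3 CPM in DKO under DMSO. Under torin1 it stood at 31.3, 35.7, 35.8 and 39.9 CPM in WT and 14.5, 14.3, 14.4 and 13.01 CPM in DKO. Torin1 thus raised *Neu1* in WT (0.55 ± 0.06) and lowered it in DKO (-0.84 ± 0.07), opposite calls within the genotypes. *Arsa* (arylsulfatase A, which breaks down sulfatides) rose in both genotypes, by 1.53 ± 0.07 in WT and 0.44 ± 0.08 in DKO, and ended at 77.8, 87.9, 78.9 and 92.1 CPM in WT against 35.1, 34.6, 35.5 and 31.1 CPM in DKO. *Galc* (galactosylceramidase) rose in WT (0.94 ± 0.08), was not called in DKO (-0.25 ± 0.09), and lay at 24.6, 28.4, 32.7 and 32.4 CPM in WT and 12.6, 12.6, 12.9 and 13.4 CPM in DKO. In each of these enzymes the lowest WT library under torin1 lay above the highest DKO library, as their choice required.

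The membrane proteins *Mfsd1* (a lysosomal dipeptide transporter), *Cnnm2* (linked to magnesium transport) and *Gpr146* (an orphan G protein-coupled receptor) were also among the 10 with the largest difference, counted over genes with a mean log2 CPM of at least 2 in the torin1 libraries. *Mfsd1* measured 189, 199, 222 and 219.4 CPM in WT and 83.5, 86.6, 85.7 and 89.9 CPM in DKO under torin1, a difference of -1.26 ± 0.05 where DMSO gave -0.12 ± 0.05. *Cnnm2* differed by -1.23 ± 0.11 and *Gpr146*, at no more than 8.27 CPM in any torin1 library, by -1.25 ± 0.14. *Mccc1*, a subunit of the mitochondrial enzyme of leucine breakdown and no lysosomal protein, read 26.9, 26.4, 24.8 and 26.0 CPM in WT and 12.99, 12.1, 11.2 and 10.1 CPM in DKO (-1.17 ± 0.06). The torin1 libraries of WT and DKO did not overlap for 303 of the 312 genes, beside 60.3% of all genes tested, and the genes were chosen by their calls in these libraries.

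**Figure D2:**
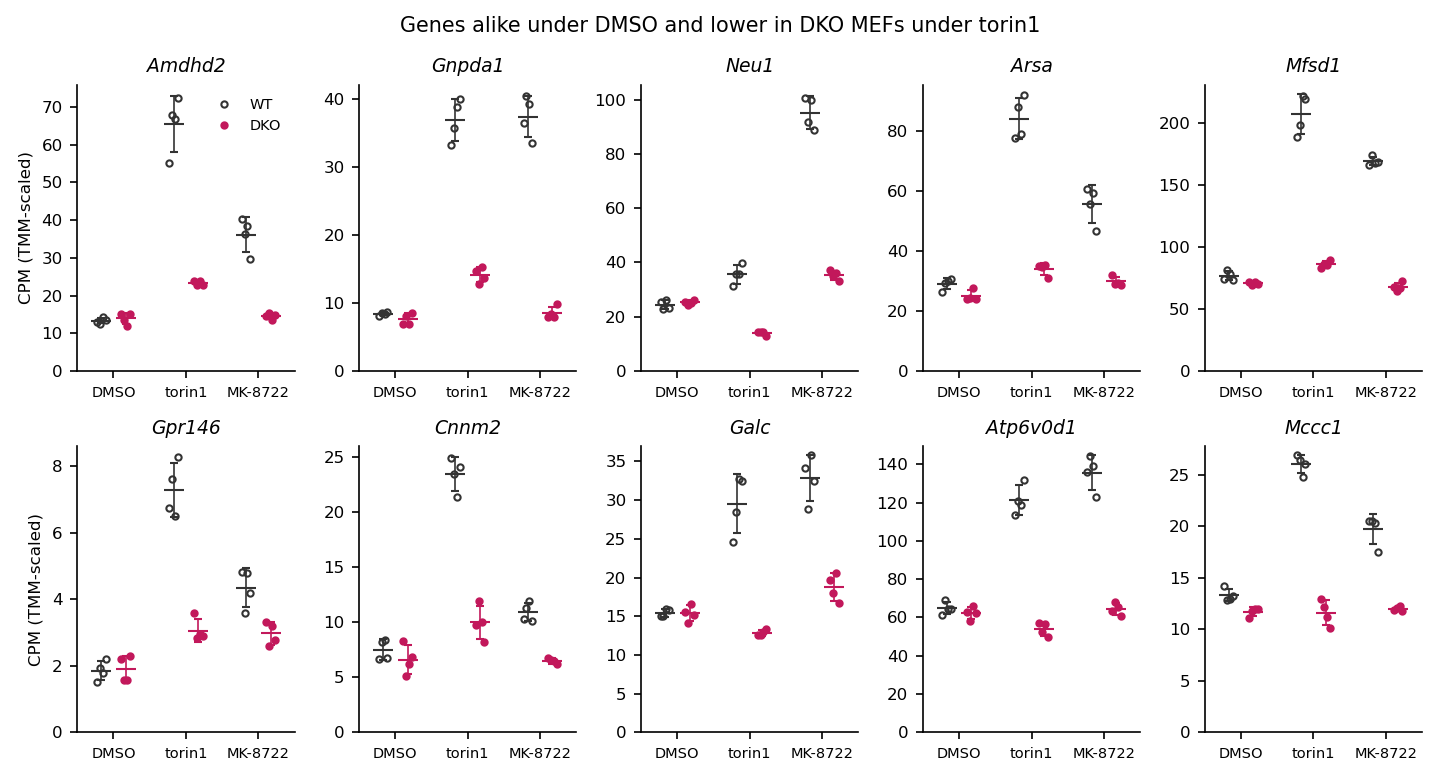
CPM per library (points), mean and SD (bars) of the 10 genes with the largest torin1 difference among those alike under DMSO, lower in DKO and at a mean log2 CPM of at least 2, by treatment and genotype, 4 libraries a group. WT and DKO points mix under DMSO and separate under torin1, as for *Amdhd2* at 55.1 to 72.5 CPM in WT and 22.7 to 23.97 CPM in DKO. The separation under torin1 was a condition of the choice, and the MK-8722 difference was none.

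The immediate-early genes *Fos* and *Egr1*, transcribed within minutes of growth factor signals, stood out among the lower genes for another course, and were singled out after their values were seen. *Egr1* measured 296, 279, 220 and 215 CPM in WT and 286, 263, 222 and 218 CPM in DKO under DMSO. Under torin1 it read 179, 161, 144 and 155 CPM in WT and 85.2, 111, 71.8 and 78.1 CPM in DKO. Torin1 lowered it in both genotypes, by -0.66 ± 0.16 (log2) in WT and -1.52 ± 0.16 in DKO, and *Fos*, at 3.60 CPM or less in every DMSO and torin1 library, by -0.53 ± 0.20 and -1.54 ± 0.23. Under MK-8722 the difference was smaller than its SE for both genes, at -0.01 ± 0.20 for *Fos* and 0.02 ± 0.16 for *Egr1*.

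The V-ATPase, the proton pump that acidifies lysosomes, was the list with the largest share of such genes. Of 20 subunits and accessory proteins tested, 14 were lower and 1 higher in DKO under torin1, where 27.8% of all genes were lower and 24% higher. Alike under DMSO and lower under torin1 were 11 of them, beside 2.03% of all genes, and the same shares stand behind the lists that follow. The median log2 fold change of the list was -0.57 under torin1, 0.11 under DMSO and -0.41 under MK-8722, where the medians of all genes were -0.04, -0.01 and -0.01. *Atp6v0d1*, of the membrane sector, measured 61.2, 68.9, 64.6 and 64.6 CPM in WT and 62.9, 58.4, 66.0 and 62.1 CPM in DKO under DMSO, and 114, 121, 119 and 132 CPM against 57.0, 52.3, 56.6 and 49.8 CPM under torin1. *Atp6v0b* (-1.15 ± 0.06), *Atp6v1d* (-0.86 ± 0.07), *Atp6v1c1* (-0.85 ± 0.04), *Atp6v1a* (-0.78 ± 0.06) and *Atp6v1b2* (-0.73 ± 0.04) followed, so that both the membrane sector and the catalytic head were among the lower genes. *Atp6v0c*, which forms the rotor ring, was lower with little response of WT cells: torin1 changed it by -0.23 ± 0.03 in WT, under the fold change needed for a call, and by -0.71 ± 0.03 in DKO. *Atp6ap1*, an accessory subunit, was the higher member (0.63 ± 0.04) and was also higher under DMSO (1.01 ± 0.04).

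Other lysosomal lists had medians below 0 under torin1, and most of them medians above 0 under DMSO. Of 14 cathepsins and other lysosomal peptidases, 9 were lower and 2 higher, with a median of -0.55 under torin1 and 0.20 under DMSO. *Ctsa* (protective protein for NEU1 and beta-galactosidase), at 261, 312, 315 and 327 CPM in WT and 165, 144, 151 and 159 CPM in DKO, differed by -0.97 ± 0.06 after 0.03 ± 0.07 under DMSO, and *Ctsb* by -0.35 ± 0.06 after 0.14 ± 0.06. *Ctsl* (0.38 ± 0.05) and *Ctsz* (0.27 ± 0.05) were the higher peptidases, and neither was called with scaling to library size alone. Of 21 glycosidases and sulfatases, 13 were lower and 5 higher (2 with library size alone), with medians of -0.44 and 0.19. Besides *Neu1* and *Arsa*, *Aga* (aspartylglucosaminidase) was among those alike under DMSO and lower under torin1 (-0.38 ± 0.05), at 29.7, 27.1, 28.0 and 28.6 CPM in WT and 22.4, 20.4, 22.1 and 22.4 CPM in DKO.

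Lysosomal membrane proteins gave 13 lower and 3 higher of 23, with medians of -0.46 under torin1 and 0.12 under DMSO. *Lamp1*, a main glycoprotein of the lysosomal membrane, measured 831, 843, 890 and 907 CPM in WT and 523, 494, 529 and 547 CPM in DKO, a difference of -0.73 ± 0.04. *Npc1* (cholesterol export, -0.78 ± 0.06) and *Clcn7* (chloride-proton exchange, -0.52 ± 0.05) were alike under DMSO as well. *Lamp2* went the other way, higher in DKO under torin1 (0.56 ± 0.08) and more so under DMSO (1.16 ± 0.08). Of 12 lipid enzymes and activators, 5 were lower and 1 higher, *Asah1* (acid ceramidase) being lower under torin1 (-0.93 ± 0.05) and under DMSO (-0.29 ± 0.05).

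Vesicle tethering and sorting complexes held 8 genes alike under DMSO and lower under torin1 among 23 members of HOPS, CORVET, retromer and WASH, with 9 lower and 5 higher in all. With scaling to library size alone the counts were 11 and 1. *Washc5*, a WASH subunit, lay at 312, 342, 359 and 365 CPM in WT and 194, 179, 194 and 194 CPM in DKO (-0.86 ± 0.04, after 0.17 ± 0.04 under DMSO), and *Washc2* differed by -0.78 ± 0.04. *Vps8* of CORVET (-0.87 ± 0.06) and *Vps33a* (-0.46 ± 0.04) were in the group too. Autophagosome genes were split, with 11 lower and 10 higher of 32 and a median of -0.00 under torin1. The ATG8 family members *Gabarap* (-0.67 ± 0.04) and *Gabarapl1* (-0.59 ± 0.05) were lower and alike under DMSO, and *Gabarap* read 196, 202, 194 and 203 CPM in WT against 131, 125, 125 and 119 CPM in DKO. *Rb1cc1* (1.90 ± 0.06), a subunit of the ULK1 kinase complex, was higher in DKO under torin1 and under DMSO (1.87 ± 0.06). Of 14 autophagy receptors 3 were lower (7 with library size alone) and 2 higher, and *Nbr1* was alike under DMSO and lower under torin1 (-0.42 ± 0.04).

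**Figure D3:**
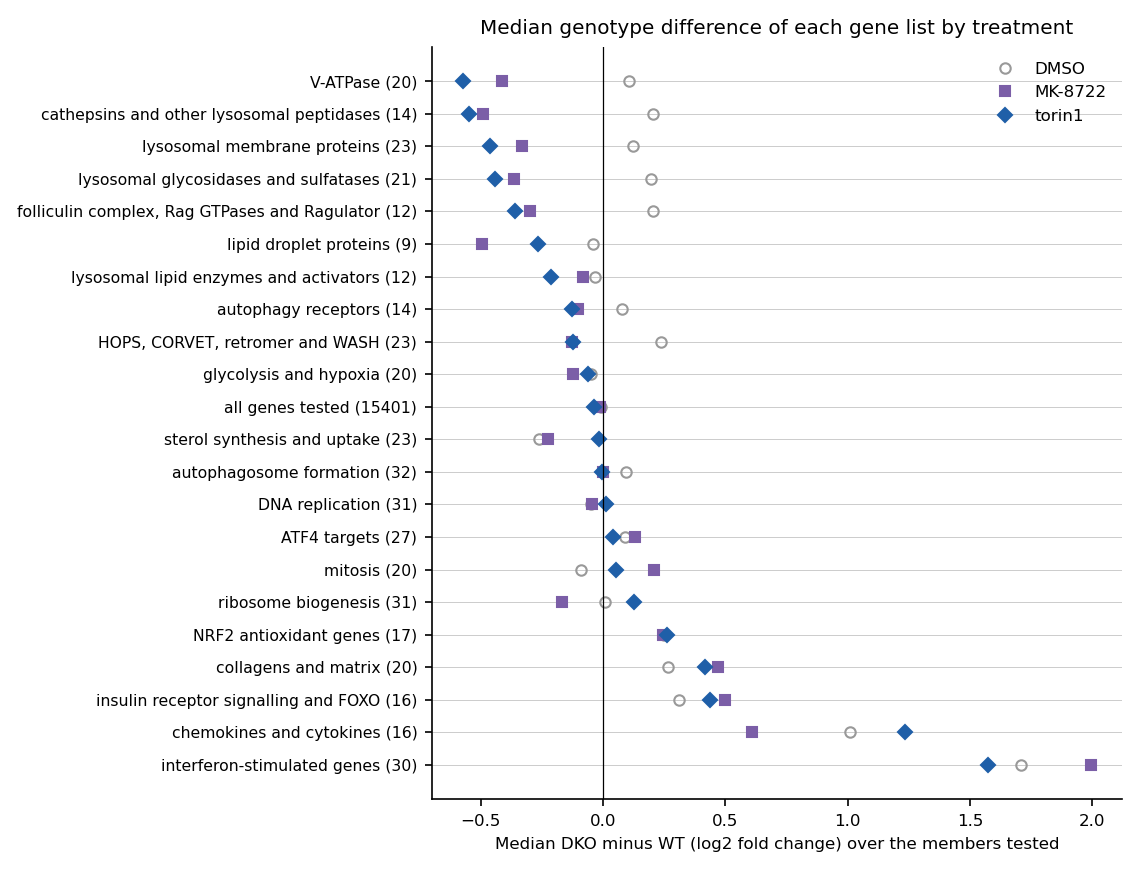
Median DKO minus WT log2 fold change over the tested members (number in brackets) of each gene list, under DMSO (open circles), MK-8722 (squares) and torin1 (diamonds). The V-ATPase, peptidase, membrane protein and glycosidase lists sit between -0.57 and -0.44 under torin1 and between 0.11 and 0.20 under DMSO, with the interferon-stimulated list at the other end.

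Promoter sequence was not used in choosing the genes. The E-box CACGTG, and TCACGTGA, an 8-base form that contains it, were looked for in RefSeq promoters on GRCm38.p6, 250 bases before to 50 after each start; both read the same on either strand. Of the 240 lower genes with a promoter in the table, 67 (27.9%) held CACGTG and 28 (11.7%) held TCACGTGA. The shares were 11.6% and 2.16% over the 10562 tested genes with a promoter, 10.9% and 2.07% over genes alike under DMSO in neither group, and 8.09% and 1.12% over all 27025 genes of the table. The 252 matched higher genes held them at 11.1% and 1.19%, close to the tested genes. The promoters below are those of the named lower genes that hold the 8-base form, printed on the strand of the gene with matches in capitals. They lie at chr17:24163684-24163983 (minus strand) for *Amdhd2*, chr3:67582518-67582817 (plus strand) for *Mfsd1*, chr8:105566015-105566314 (minus strand) for *Atp6v0d1* and chr2:25356283-25356582 (minus strand) for *Dpp7*, a gene of the crossing group described further on.
Amdhd2: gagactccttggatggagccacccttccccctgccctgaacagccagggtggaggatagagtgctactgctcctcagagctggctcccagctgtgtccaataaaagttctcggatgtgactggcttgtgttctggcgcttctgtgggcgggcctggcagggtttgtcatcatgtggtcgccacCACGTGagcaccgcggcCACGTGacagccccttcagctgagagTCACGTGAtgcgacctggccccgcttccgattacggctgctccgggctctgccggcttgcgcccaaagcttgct
Mfsd1: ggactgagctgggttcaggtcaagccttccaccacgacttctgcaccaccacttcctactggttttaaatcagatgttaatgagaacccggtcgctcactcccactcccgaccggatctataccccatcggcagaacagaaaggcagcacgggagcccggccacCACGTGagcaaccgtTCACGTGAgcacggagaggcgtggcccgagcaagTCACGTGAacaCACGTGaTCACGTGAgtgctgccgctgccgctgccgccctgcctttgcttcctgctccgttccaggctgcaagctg
Atp6v0d1: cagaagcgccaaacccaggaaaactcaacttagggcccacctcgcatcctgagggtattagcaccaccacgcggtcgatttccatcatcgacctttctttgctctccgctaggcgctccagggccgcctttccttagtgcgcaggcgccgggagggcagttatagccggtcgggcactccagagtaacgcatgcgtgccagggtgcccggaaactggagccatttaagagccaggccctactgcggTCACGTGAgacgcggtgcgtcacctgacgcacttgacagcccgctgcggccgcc
Dpp7: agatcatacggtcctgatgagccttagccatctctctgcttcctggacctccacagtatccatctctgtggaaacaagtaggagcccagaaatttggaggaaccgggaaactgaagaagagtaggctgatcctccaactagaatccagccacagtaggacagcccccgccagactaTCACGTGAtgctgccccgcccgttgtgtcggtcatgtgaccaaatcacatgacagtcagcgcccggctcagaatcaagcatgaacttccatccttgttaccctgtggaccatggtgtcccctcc
*Amdhd2* held 3 matches to CACGTG, which began 67, 50 and 23 bases before the start, and *Mfsd1* held 5, between 86 and 18 bases before it. *Atp6v0d1* held 1 match, 3 bases before the start, and *Dpp7* held 1, 73 bases before it. A promoter was in the table for 9 of the 10 lower genes alike under DMSO with the largest difference. Of these 9, 5 held CACGTG and 3 the longer form, while none of the 9 matched among the 10 higher genes held either. A match is a stretch of letters and not a measured binding site.

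The torin1 response was then read within each genotype. The choice already required it to be lower in DKO than in WT for the lower genes, and higher for the higher genes. The counts are therefore a description. Of the 312 lower genes, 119 were raised by torin1 in WT and not called in DKO, 38 were raised in both and 9 were raised in WT and lowered in DKO. Another 85 were not called in WT and lowered in DKO, and 28 were lowered in both. The remaining 33 were called in neither. Over all genes torin1 raised 26.6% and lowered 20.5% in WT, and raised 23% and lowered 20.2% in DKO, 43.2% in all. *Lamtor3*, a Ragulator subunit that anchors MTORC1 at the lysosome, was of the kind lowered in DKO alone: torin1 changed it by -0.17 ± 0.04 in WT and by -1.14 ± 0.05 in DKO, to 31.8, 34.2, 31.6 and 34.7 CPM against 18.7, 17.6, 18.1 and 17.8 CPM. *Washc5* was of the kind raised in WT alone, by 1.06 ± 0.04 against 0.04 ± 0.04. Of the 286 higher genes, 64 were lowered in WT and not called in DKO, 66 were raised in DKO and not called in WT, 48 were raised in both, 47 lowered in both, 7 moved in opposite directions and 54 were called in neither.

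The genotype difference under MK-8722 was no part of the conditions that chose the genes, although its 8 libraries entered the same fit and came from the same range of passages. Of the 312 lower genes, 164 (52.6%) were lower in DKO under MK-8722 and 5 were higher, where 25.4% of all genes tested were lower. Of the 5064 genes alike under DMSO and in neither group, 373 (7.37%) were lower under MK-8722. Of the 286 higher genes, 73 (25.5%) were higher under MK-8722, beside 23.3% of all genes and 7.82% of the genes alike under DMSO in neither group. The median log2 fold change under MK-8722 was -0.28 for the lower and 0.17 for the higher genes. With the genes chosen in a fit of the 16 DMSO and torin1 libraries and MK-8722 called in a fit of its 8 libraries alone, 163 of 339 lower genes (48.1%) were lower, beside 24.8% of the 14171 genes in that fit, and 75 of 268 higher genes (28.0%) were higher, beside 24%. This check was added after seeing the data. A library of lower RNA integrity, 7.9, was among the DKO MK-8722 libraries, and without it the shares were 52.2% and 25.2%.

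Single genes differed in how far the reading under MK-8722 matched that under torin1. *Neu1* differed by -1.43 ± 0.06 under MK-8722 and *Mfsd1* by -1.32 ± 0.05, and for neither was the torin1 difference called apart from that under MK-8722 (0.09 ± 0.09 and 0.06 ± 0.07). *Gnpda1* differed more under MK-8722 (-2.13 ± 0.08), the difference between treatments being 0.75 ± 0.12. *Arsa* (-0.90 ± 0.08), *Gpr146* (-0.55 ± 0.14), *Galc* (-0.80 ± 0.08) and *Mccc1* (-0.72 ± 0.06) differed less than under torin1, each called apart. In all, the torin1 difference was called larger than that under MK-8722 for 97 of the lower and 129 of the higher genes, and smaller for 7 and 0. Over all genes it was called lower for 4.84% and higher for 6.23%. The torin1 libraries chose these genes, so the counts describe and do not test an excess.

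A smaller set crossed over between treatments. In 60 genes (0.39% of those tested) DKO was higher under DMSO and lower under torin1, and in 9 genes (0.0584%) the reverse held. The 60 had median differences of 0.42 and -0.47. Torin1 raised 50 of them in WT and 9 in DKO, beside 26.6% and 23% of all genes. Opposite calls required a lower torin1 response in DKO than in WT, so these counts are a description. Under MK-8722, 37 were also lower and 4 higher, beside 25.4% and 23.3% of all genes. *Gpnmb*, a lysosomal membrane glycoprotein, had the largest difference of differences. It measured 0.769, 0.813, 1.05 and 0.443 CPM in WT and 1.54, 2.39, 2.57 and 3.53 CPM in DKO under DMSO, and 13.6, 20.4, 24.9 and 27.0 CPM against 6.38, 3.05, 3.52 and 4.65 CPM under torin1. The order of the genotypes turned over without overlap in either treatment. Opposite calls and the lack of overlap under torin1 were conditions of the choice of this gene. *Plin4*, which coats lipid droplets, went from 1.22 ± 0.30 under DMSO to -2.18 ± 0.20 under torin1.

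Metabolic and lysosomal genes made up the rest of the named crossing genes. *Uap1l1*, a relative of the enzyme that makes UDP-N-acetylglucosamine, measured 54.4, 48.0, 59.4 and 50.6 CPM in WT and 108, 110, 118 and 117 CPM in DKO under DMSO, then 137, 169, 173 and 190 CPM against 108, 91.3, 99.2 and 98.3 CPM under torin1. DKO cells held nearly one level in both treatments (-0.19 ± 0.08, not called), while WT rose past it (1.66 ± 0.08). *Ctns*, the cystine exporter of lysosomes, did likewise, with 0.03 ± 0.06 in DKO and 1.74 ± 0.06 in WT. *Dpp7*, a lysosomal dipeptidyl peptidase, rose in both, from 0.27 ± 0.09 between genotypes under DMSO to -1.49 ± 0.08 under torin1. *Tpp1*, another lysosomal peptidase, went from 0.27 ± 0.07 to -1.09 ± 0.07.

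Several crossing genes belong to the machinery by which lysosomes report amino acids to MTORC1. *Flcn* (folliculin), the GTPase-activating protein for RagC and RagD, stood at 53.7, 66.0, 62.5 and 63.9 CPM in WT and 29.8, 26.4, 28.8 and 26.3 CPM in DKO under torin1, and its difference went from 0.41 ± 0.06 to -1.14 ± 0.06. Its partner *Fnip1* went from 0.98 ± 0.04 to -0.43 ± 0.04 and *Lamtor1*, the Ragulator anchor, from 0.31 ± 0.04 to -0.36 ± 0.04. In the list of 12 that holds them, 8 were lower and 2 higher under torin1. The higher ones were *Rragb* (2.06 ± 0.11, and 3.25 ± 0.13 under DMSO) and *Fnip2* (0.53 ± 0.08, and 0.80 ± 0.08 under DMSO).

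The 9 genes lower under DMSO and higher under torin1 moved less. *Cdc42ep2*, an effector of CDC42, measured 9.07, 12.4, 9.37 and 10.5 CPM in WT and 7.71, 6.32, 6.53 and 7.42 CPM in DKO under DMSO, and 7.35, 7.21, 6.99 and 7.45 CPM against 12.02, 10.1, 9.34 and 9.15 CPM under torin1. The genotypes overlapped neither under torin1, as the choice required, nor under DMSO, and the difference went from -0.56 ± 0.11 to 0.49 ± 0.11. That of *Pstpip2*, an F-BAR adaptor, went from -0.51 ± 0.16 to 0.44 ± 0.16. Torin1 raised 8 of the 9 in DKO and lowered 4 in WT, beside 23% and 20.5% of all genes. Opposite calls required the higher torin1 response in DKO. The count of 9 depended on single libraries, at 14 without WT torin1 replicate 1 and 5 without WT torin1 replicate 2. It was 5 with scaling to library size alone.

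**Figure D4:**
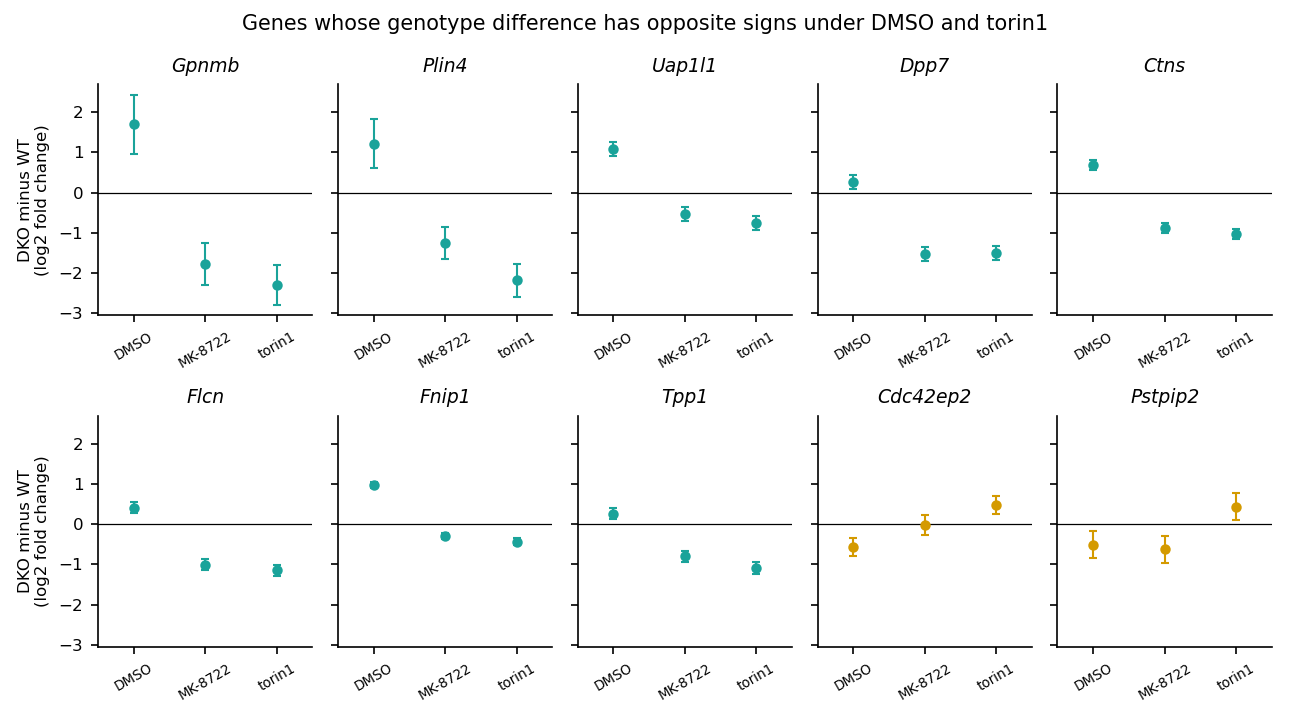
DKO minus WT log2 fold change with its 95% confidence interval under DMSO, MK-8722 and torin1 for 10 genes called in opposite directions under DMSO and torin1, 8 lower (teal) and 2 higher (yellow) under torin1. In the 8 teal genes the MK-8722 value lies below 0 like the torin1 value, and *Gpnmb* spans the widest range, from 1.70 to -2.29.

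Among genes alike under DMSO and higher in DKO under torin1, the 10 with the largest difference by the same rule were *Exosc6*, *Sema7a*, *Vegfa*, *Plau*, *Tcp11l2*, *Dusp5*, *Arl4c*, *Stard13*, *Rsbn1* and *Chac1*. *Exosc6*, a subunit of the RNA exosome, had the largest difference, at 3.95, 4.003, 3.89 and 4.08 CPM in WT and 15.2, 10.3, 15.7 and 19.05 CPM in DKO under torin1 (1.92 ± 0.21), where DMSO gave 0.01 ± 0.23. *Sema7a*, a membrane-anchored semaphorin, measured 5.39, 5.02, 6.90 and 6.41 CPM in WT and 15.8, 15.3, 16.2 and 21.3 CPM in DKO. Torin1 lowered it in WT (-0.78 ± 0.15) and raised it in DKO (0.66 ± 0.14). *Vegfa*, the angiogenic growth factor, did the same, by -0.52 ± 0.11 and 0.34 ± 0.11, and read 44.5, 47.6, 56.9 and 48.3 CPM in WT and 88.1, 90.6, 103 and 126 CPM in DKO. *Plau* (urokinase) was not called in WT (-0.00 ± 0.13) and rose in DKO (1.02 ± 0.12), to 16.9, 14.6, 19.1 and 17.5 CPM against 31.3, 45.5, 29.4 and 33.9 CPM.

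*Dusp5*, a nuclear phosphatase of ERK, measured 65.2, 63.1, 60.6 and 49.1 CPM in WT and 54.5, 71.3, 65.6 and 62.0 CPM in DKO under DMSO, and 46.7, 37.1, 53.0 and 40.5 CPM against 80.8, 76.0, 82.5 and 101 CPM under torin1. *Arl4c*, a small GTPase (0.94 ± 0.10), *Stard13*, a GTPase-activating protein (0.93 ± 0.09), *Rsbn1* (0.91 ± 0.08) and *Tcp11l2* (1.03 ± 0.09) were also higher. *Chac1*, which degrades glutathione and is a target of ATF4, was strongly lowered by torin1 in both genotypes, by -3.05 ± 0.16 in WT and -2.35 ± 0.16 in DKO, and was left at 8.00, 5.85, 8.56 and 9.17 CPM in WT and 14.4, 12.3, 13.4 and 18.2 CPM in DKO. WT and DKO libraries did not overlap under torin1 for 282 of the 286 genes, beside 60.3% of all genes, though the genes were chosen by their calls in these libraries.

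**Figure D5:**
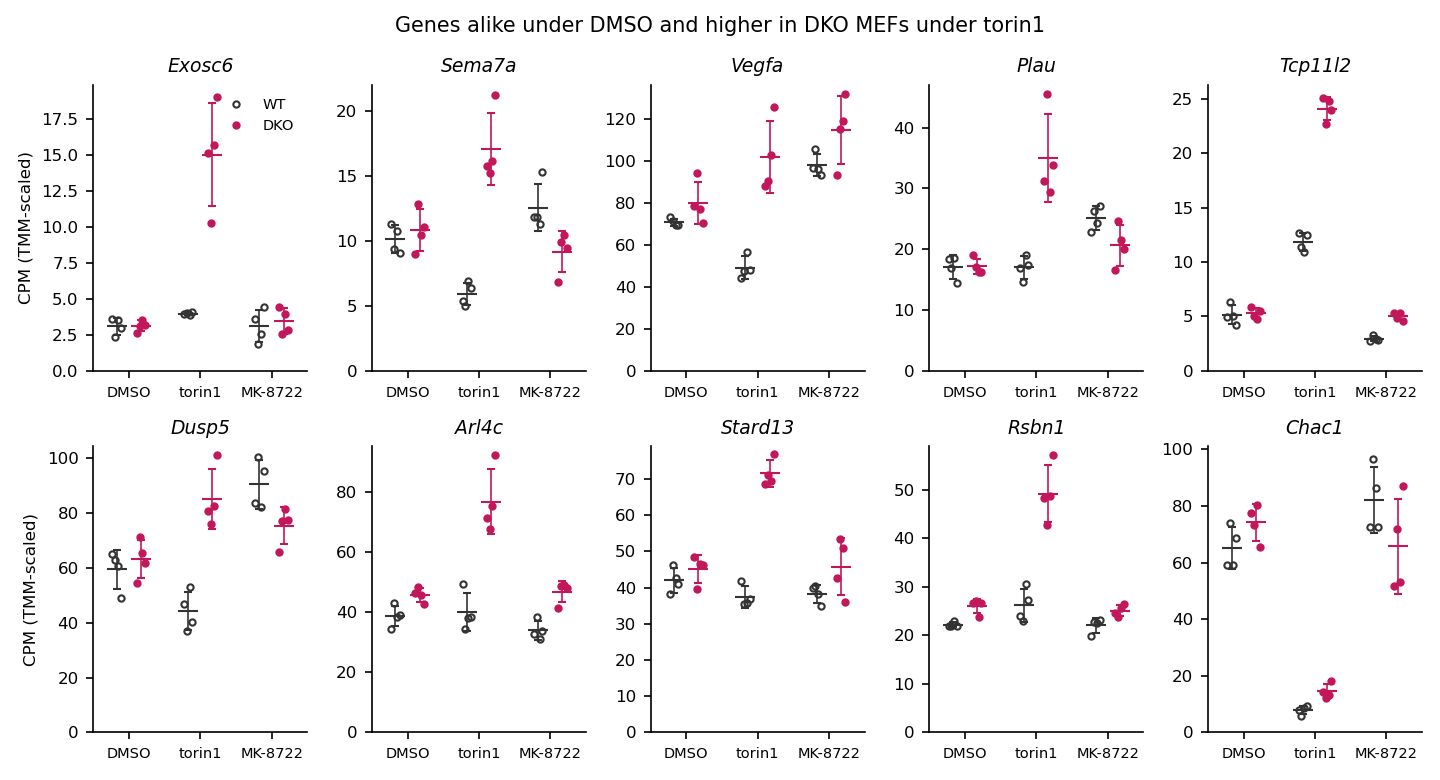
CPM per library (points), mean and SD (bars) of the 10 genes with the largest torin1 difference among those alike under DMSO, higher in DKO and at a mean log2 CPM of at least 2, by treatment and genotype, 4 libraries a group. DKO points lie above WT points under torin1, which the choice required, as for *Plau* at 29.4 to 45.5 CPM against 14.6 to 19.1 CPM. Under DMSO the points mix, and under MK-8722 *Sema7a* was lower in DKO (-0.45).

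Only 5 of the 286 higher genes were called lower under MK-8722, against the 73 called higher, and *Sema7a*, *Dusp5* and *Cited2* were among the 5. *Sema7a* was lower in DKO under MK-8722 (-0.45 ± 0.14) and so was *Dusp5* (-0.26 ± 0.11), and for both the torin1 difference was called apart from it, by 1.98 ± 0.20 for *Sema7a*. *Cited2*, a transcriptional coregulator, was higher under torin1 (0.61 ± 0.06) and lower under MK-8722 (-0.47 ± 0.06). *Runx1*, a transcription factor singled out after its values were seen, was higher under torin1 (0.75 ± 0.08) and at -0.01 ± 0.08 under MK-8722. *Tcp11l2* was higher under both (0.77 ± 0.11 under MK-8722).

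In the higher group were 1 of 31 DNA replication genes, *Rrm2*, and 0 of 20 mitosis genes, beside 1.86% of all genes. *Rrm2*, the small subunit of ribonucleotide reductase, fell in both genotypes under torin1 (-0.96 ± 0.05 in WT, -0.39 ± 0.05 in DKO) and was left at 94.8, 96.7, 101.9 and 105 CPM in WT and 172, 187, 181 and 167 CPM in DKO. *Ccne1* (cyclin E1), singled out after its values were seen, fell by -1.44 ± 0.09 in WT and -0.95 ± 0.09 in DKO. The DNA replication list as a whole did not lean either way, with 4 lower and 4 higher of 31 and a median of 0.01, which scaling to library size alone turned to -0.11. *Ccng2*, a FOXO target, was raised in both genotypes and more in DKO, with a difference of 0.64 ± 0.13 under torin1 and -0.06 ± 0.15 under DMSO.

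In the lists away from the lysosome, *Plin3* of the lipid droplet proteins was the only gene alike under DMSO and lower under torin1. The higher group held 2 of 16 genes of insulin receptor signalling and FOXO, beside 1.86% of all genes. Besides *Rrm2*, it also held 1 of 27 ATF4 targets, 1 of 20 glycolysis and hypoxia genes and 1 of 17 NRF2 antioxidant genes. None was in the sterol, ribosome biogenesis, mitosis, matrix, interferon, chemokine or lipid droplet lists. Counts of calls in these lists stand beside 27.8% of all genes lower and 24% higher. Of 27 ATF4 targets 8 were lower and 3 higher, with *Ddit4* (-1.38 ± 0.16) and *Sesn2* (-1.22 ± 0.11), both inhibitors of MTORC1 signalling, lower under torin1 and to a lesser degree under DMSO (-0.80 ± 0.12 and -0.55 ± 0.09). Of 16 genes of insulin receptor signalling and FOXO, 3 were lower and 9 higher, led by *Irs1* (1.81 ± 0.15, and 1.49 ± 0.15 under DMSO). Of 31 ribosome biogenesis genes none was lower and 7 were higher, with a median of 0.13 that scaling to library size alone brought to -0.00 with 5 lower and 3 higher. Sterol synthesis (8 lower, 4 higher of 23), glycolysis and hypoxia (8 and 5 of 20), mitosis (2 and 4 of 20), NRF2 antioxidant genes (3 and 8 of 17), collagens and matrix (5 and 10 of 20), chemokines and cytokines (1 and 11 of 16) and lipid droplet proteins (5 and 2 of 9) completed the lists.

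Interferon-stimulated genes showed a library that stood apart. Of 30 tested, 7 were higher in DKO under torin1, a share near the 24% of all genes, and none was lower, with a median of 1.58. *Oasl1* and *Rsad2* are antiviral proteins induced by interferon. *Oasl1* measured 38.1, 7.43, 4.01 and 4.08 CPM in the WT torin1 libraries of replicates 1 to 4 and 137, 158, 102.1 and 98.7 CPM in DKO, and *Rsad2* 19.7, 2.22, 1.85 and 1.68 CPM against 60.3, 77.4, 43.3 and 42.2 CPM. WT replicate 1, of passage 11, was the highest WT torin1 library for both, and the WT DMSO library of the same passage, replicate 2, was the highest of its group at 29.4 CPM for *Oasl1* and 12.3 CPM for *Rsad2*. Without it, 29 of the 30 genes were called higher and the median was 3.37. The median difference was 1.71 under DMSO and 1.99 under MK-8722, and no member was alike under DMSO.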

How the data were processed

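Poly(A) RNA of 24 MEF cultures was sequenced as paired 52-bp reads, and the authors aligned it with STAR and quantified it with Salmon, UMIs considered, against GRCm38. The deposited values are estimated counts per gene, which were rounded here to whole numbers. The authors also deposited Salmon's TPM and effective length per transcript, used here for an alternative offset only. Depth was 24668870 to 33332507 counts per library, and all libraries carried the same batch label. Of 55487 genes, 15401 passed edgeR's filterByExpr (minimum count 10).

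All 24 libraries were fitted with edgeR 4.0.16 (TMM, quasi-likelihood test) in R 4.3.3, with genotype and treatment combined as 6 groups and no covariate. Genotype contrasts were taken within each treatment, together with their differences between treatments, and p-values were adjusted by Benjamini-Hochberg over all genes tested. The limits for a call were 0.05 for the adjusted p and 1.2 for the fold change. The code was tested on simulated data.

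Members and gene lists were chosen with earlier results of these data known. Named genes were the factors, the 10 genes a side alike under DMSO and 5 crossing genes a side with the largest differences at a mean log2 CPM of at least 2, with no overlap of the torin1 libraries and no Gm or Rik name, and list members. Genes said to be singled out, and *Fos* and *Egr1*, were added after their values were seen. Some genes chosen by this rule are not reported here. Promoters came from RefSeq (GRCm38.p6). Alternatives included limma 3.58.1 and DESeq2 1.42.0. Per-sample columns without a sample numbered 0.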

Additional observations from a re-analysis of the deposited data

Results flagged for a closer look

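Within the torin1 groups, a library stood apart from the other 3 of its group for some of the 83 genes named, its gap to the nearest library taking up most of the group's range (Dixon's test at 95%). This was so for 13 of 166 groups, where chance gives about 8.3. In WT the ratios were *Atp6v1d* (0.912), *Lamtor1* (0.851), *Mcoln1* (0.831), *Oasl1* (0.900), *Rsad2* (0.970) and *Washc2* (0.853). In DKO they were *Aga* (0.865), *Atp6ap1* (0.838), *Ctsl* (0.880), *Gpr146* (0.846), *Neu1* (0.848), *Sema7a* (0.847) and *Washc5* (0.969). For *Oasl1* and *Rsad2* the library was WT replicate 1, the library of passage 11 whose removal raised the count of interferon-stimulated genes called from 7 to 29.

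The genotype difference under torin1 was called apart from that under DMSO for 68 of the 83 genes named, beside 11% of all genes tested. For the genes alike under DMSO this test was part of their choice. Crossing genes were chosen by opposite calls, and those named first by the size of this difference. The values, log2 differences of torin1 minus DMSO, are therefore a description. The most negative were *Gpnmb* -3.98, *Plin4* -3.40, *Uap1l1* -1.85, *Dpp7* -1.76, *Ctns* -1.70, *Flcn* -1.56, *Amdhd2* -1.55, *Atp6v0b* -1.41, *Fnip1* -1.41 and *Neu1* -1.40. Next came *Tpp1* -1.36, *Gpr146* -1.29, *Gnpda1* -1.24, *Rragb* -1.20, *Galc* -1.19, *Mfsd1* -1.15, *Atp6v0d1* -1.11, *Arsa* -1.09, *Cnnm2* -1.05, *Nagk* -1.03, *Washc5* -1.03, *Ctsa* -1.01, *Fos* -1.0 and *Atp6v1d* -1.0. Smaller values were *Mccc1* -0.98, *Lamtor3* -0.97, *Gaa* -0.96, *Egr1* -0.86, *Atp6v1b2* -0.85, *Mcoln1* -0.85, *Washc2* -0.85, *Gabarap* -0.78, *Lamp1* -0.71, *Atp6v1a* -0.71 and *Atp6v1c1* -0.70. The least negative were *Lamtor1* -0.68, *Sesn2* -0.67, *Vps8* -0.66, *Asah1* -0.64, *Lamp2* -0.61, *Npc1* -0.58, *Ddit4* -0.58, *Aga* -0.57, *Vps33a* -0.57, *Clcn7* -0.51, *Ctsb* -0.49, *Atp6v0c* -0.48, *Atp6ap1* -0.38 and *Gabarapl1* -0.36. Values above 0 were *Exosc6* 1.91, *Sema7a* 1.44, *Cdc42ep2* 1.05, *Plau* 1.03, *Tcp11l2* 0.99, *Pstpip2* 0.95, *Vegfa* 0.87, *Dusp5* 0.85, *Stard13* 0.83, *Chac1* 0.70, *Ccng2* 0.70, *Arl4c* 0.70, *Rsbn1* 0.68, *Mitf* 0.61, *Rrm2* 0.57, *Runx1* 0.50, *Ccne1* 0.49, *Cited2* 0.48 and *Esyt2* 0.38.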

How the results depend on the processing

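The counts of genes lower and higher in DKO under torin1 stayed within 1.5 times of the reported ones under every alternative run, between 4108 and 4415 and between 3577 and 3826 when single libraries were left out. Without any library in turn, genes alike under DMSO numbered 251 to 301 (lower) and 235 to 465 (higher), crossing genes 49 to 64 and 5 to 14, and the shares lower or higher under MK-8722 were 50% to 61.0% and 20.2% to 29.0%. Scaling to library size alone gave 523 lower and 157 higher genes alike under DMSO and 5 crossing upwards, with 68.1% of calls lower in place of 53.7%. A DMSO interval inside 1.2-fold left 171 and 163 genes and a share of 16.6% higher under MK-8722. Without the test of the torin1 against the DMSO difference there were 741 and 728. With culture (passage within genotype) as a block for that test there were 436 lower and 455 higher genes, the reported ones among them but for 1 lower gene. Calls on the adjusted p alone gave 157 and 70 crossing genes and a share of 10.8%, and glmTreat gave 23 and 2. Without the WT libraries of passage 11, 16 genes crossed upwards. For each of these the cause was not tested, except that stricter or looser rules admit fewer or more genes. The alternatives that left out each MK-8722 library or fitted those libraries apart were chosen after seeing the data.

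Replicate numbers did not pair the torin1 libraries, whose deviations correlated at 0.015 to 0.065 between WT and DKO. Torin1 and DMSO libraries of one passage did deviate together in part, at 0.036 to 0.641 in WT and 0.049 to 0.160 in DKO, which the reported test does not use. With replicate as a block 4296 genes were lower and 3730 higher, and genes alike under DMSO numbered 323 and 297. The torin1 differences of all genes chosen by the rule or added, also those not reported here, were followed over all alternatives. Of these values, 5025 kept direction and side of the threshold, 103 lost the call, 20 gained it and none reversed. *Plin3* and *Ctsz*, near the fold limit, and *Pstpip2*, whose adjusted p passed 0.05 in edgeR's test, lost their calls in some alternatives. Depth limits genes at a few CPM, such as *Fos*, *Gpnmb* in DMSO and *Rragd* in DKO.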
